A study of Aspergillus niger with 4 samples.

Results

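The genes described here encode the smallest predicted proteins of the filamentous fungus Aspergillus niger. They are all genes whose coding length was at most 300 bases, and that were listed in at least 1 of 4 deposited RNA-seq tables. This limit leaves room for at most 99 residues before a stop codon. There were 257 such genes among 10898 listed genes. Among listed genes, membership was set by the length column alone; since a table lists only genes with a count, each member had at least 1 read in at least 1 library. Lengths ran from 75 to 300 bases with a median of 252, and the second shortest gene had 150 bases.

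Each library was made from mycelium grown for 16 h in complete medium with 2% fructose, washed, and moved for 2 h to minimal medium (50 ml, pH 6) whose carbon source was 25 mM maltose, a sugar of starch breakdown. The reference strain was N593 delta-kusA, with the genotype cspA1, pyrG-, kusA::amdS. The mutant, delta-hapX, carried the same 3 alleles and in addition delta-hapX::hph, a replacement of hapX by a hygromycin resistance gene. Both strains therefore lacked kusA, a gene of DNA end joining whose loss favours targeted gene replacement, and both carried the pyrG mutation, a marker of uridine auxotrophy. There were 2 libraries of each strain, called a and b. The sources used here do not state whether they came from separate cultures or whether delta-hapX was 1 transformant. A p-value therefore sets the strain difference against library-to-library spread, part or all of which may be technical. The tests below estimate that spread partly from other genes.

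Small proteins of fungi belong to a few well known classes. Many are subunits of large assemblies, such as the smallest proteins of the ribosome and the accessory subunits of the respiratory chain and of the ATP synthase. Others are chaperones of mitochondrial protein import, metal-binding peptides or secreted peptides. HapX is a transcription factor that acts with the CCAAT-binding complex; in Aspergillus nidulans and Aspergillus fumigatus it is known for lowering iron-consuming functions, respiration and heme synthesis among them, when iron is scarce. The files pair the identifiers with no name or function, and 0 of the 257 identifiers matched the only gene table at hand, so no member below is given a role. The level of hapX itself and of mycelial markers was not checked for the same reason.

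The libraries held between 3505555 and 4264311 expected counts, that is, estimated reads per gene before any normalization. Levels are given as the deposited FPKM, a count scaled to gene length and to sequencing depth. In all 4 tables the length used for that scaling was the coding length minus 36 bases, a correction that matters most for the shortest genes. At the median length of the short genes, 10 reads corresponded to 10.5 to 12.8 FPKM, against 1.79 to 2.19 FPKM at the median length of all listed genes, which was 1300 bases. A short gene thus needed a higher level per length to be measured with the same precision. A count of 0 allows up to 3 reads, or 0.704 to 0.856 CPM, the count relative to the library's size, in these libraries. For this floor the size is the library's total count, whereas the CPM of genes below uses TMM library sizes.

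Per length, the median level of the listed short genes was higher than that of all listed genes. Genes without a read in any library are not in either set, so the shares below are of listed genes. Of the 257 genes, 197 (76.7%) were listed in all 4 libraries, against 87.5% of all listed genes, and 28 were listed in 1 library only (10.9% against 4.44%). The median level was 28.1 FPKM in the reference and 28.4 FPKM in delta-hapX, against 15.6 and 15.3 FPKM for all listed genes. Between 82 and 87 short genes, 31.9% to 33.9% of them, reached 100 FPKM in a library, where 12.4% to 13.0% of all genes did. Another 29 to 39 were at 0 in a given library. These figures are descriptions on the FPKM scale, without a test. With counts per kilobase of the full coding length, the medians of the short genes were 25.2 in the reference and 25.9 in delta-hapX.

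**Figure D1:**
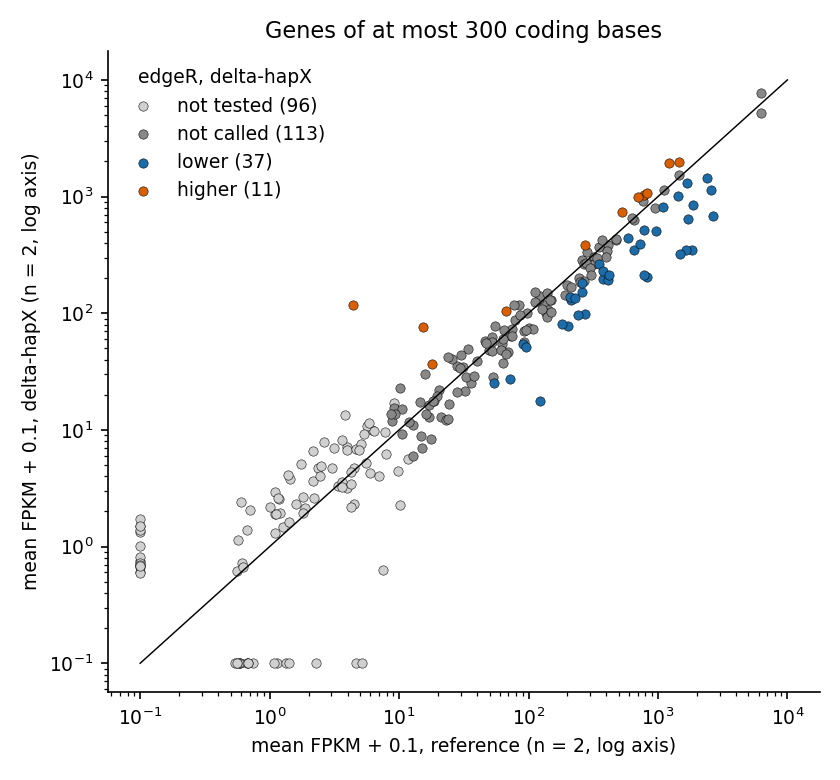
Level, as mean FPKM + 0.1, of each of the 257 short genes in the reference (x axis) and in delta-hapX (y axis), both on log axes, n = 2 libraries per strain; the line marks equal levels and colours give the edgeR call. Most points follow the line over several orders of magnitude, 37 lower genes lie below it mainly at high levels, and the 96 genes without a test are at the bottom left.

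The short genes, 2.36% of all listed genes, took up 1.47% and 1.39% of all counts in the reference (libraries a and b), and 1.06% and 1.14% in delta-hapX. The delta-hapX libraries were both lower than both reference libraries. The means were 1.43% ± 0.0558 and 1.10% ± 0.0499 (SD, n = 2 each), and an exact two-sided permutation test of 2 against 2 libraries cannot go below p = 0.333. In bulk RNA, fewer transcripts per cell and fewer cells that express a gene cannot be told apart. The 10 most counted short genes held 45.6% to 49.4% of the counts of the class in each library, and 10 of the 100 genes with the highest mean FPKM in the whole data set were short genes.

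Far above the rest were NRRL3_01646 and NRRL3_03748, which together held 18.6% to 29.3% of the counts of the class. NRRL3_01646 (246 bases) had 5759 and 6732 FPKM in the reference and 6895 and 8520 FPKM in delta-hapX, and was ninth among all genes by mean FPKM. NRRL3_03748 (282 bases) had 5821 and 6604 FPKM in the reference and 4639 and 5851 FPKM in delta-hapX. The delta-hapX values were the higher ones for NRRL3_01646, whereas those of NRRL3_03748 overlapped the reference. Neither passed the test, with log2 fold changes of 0.32 (SE 0.14, adjusted p = 0.097) and -0.23 (SE 0.14, adjusted p = 0.243) by edgeR. For NRRL3_01646 the call depended on the setting, since the adjusted p ranged from 0.0167 to 0.632 over 14 alternatives and was under 0.05 in 5 of them.

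The other 8 of the 10 most abundant short genes lay between 676 and 2892 FPKM in single libraries, and 5 of them fell, 2 rose and 1 was not called. NRRL3_10010 (189 bases) had 2771 and 2021 FPKM in the reference and 1456 and 1448 FPKM in delta-hapX. NRRL3_06388 (273 bases) went from 2726 and 2416 FPKM to 1148 and 1129.5 FPKM, a fall of 1.16 on the log2 scale (SE 0.12, edgeR adjusted p = 5.15e-07). NRRL3_02935 (249 bases) went from 2102 and 1647 FPKM to 903 and 805 FPKM. In these 3 genes the strains were clearly apart, and in NRRL3_10010 and NRRL3_02935 the larger part of the remaining spread was between the reference libraries. NRRL3_11247 (291 bases) fell by 0.35 on the log2 scale, from 1717 and 1662 FPKM to 1393 and 1231 FPKM (edgeR adjusted p = 0.0303). That call was lost in 6 of 14 alternatives, where the adjusted p reached 0.283.

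**Figure D2:**
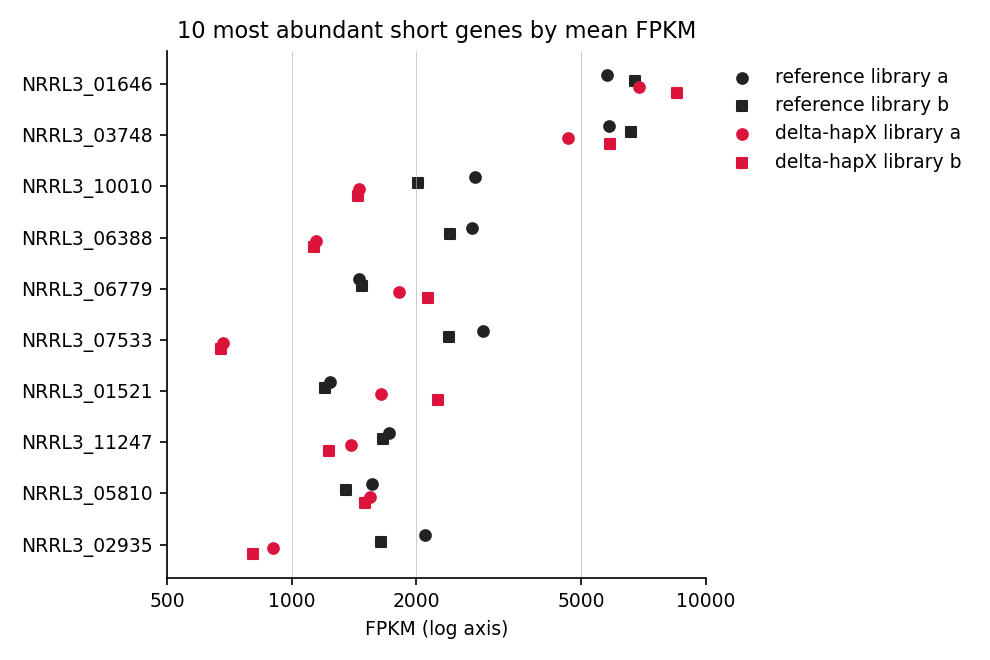
FPKM on a log axis of the 10 short genes with the highest mean FPKM, 1 point per library, black for the reference and red for delta-hapX, circles for library a and squares for library b. NRRL3_07533 shows the widest gap, with 2402 and 2892 FPKM in the reference and 676 and 682 FPKM in delta-hapX, whereas the points of NRRL3_05810 lie together.

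The place of the top genes differed between strains. Of the 10 short genes with the highest FPKM in each strain, 5 were shared. NRRL3_02026, NRRL3_02505, NRRL3_02935, NRRL3_04116 and NRRL3_07533 ranked there only in the reference, and NRRL3_00451, NRRL3_01521, NRRL3_05810, NRRL3_06779 and NRRL3_07674 only in delta-hapX. Entering the ranking in 1 strain only favours 1 direction of change, so nothing is read from it. NRRL3_00451 and NRRL3_05810 themselves had log2 fold changes of 0.025 and 0.086, neither of which passed the test.

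NRRL3_01521, the shortest gene in the data at 75 bases, was also among the most abundant ones. It had 213 and 201 reads in the reference and 254 and 318 reads in delta-hapX, or 1239 and 1204 FPKM against 1645 and 2255 FPKM. The delta-hapX libraries were higher and further apart from each other than the reference libraries. It rose by 0.69 on the log2 scale (SE 0.17, edgeR adjusted p = 0.00545), but the call was lost without delta-hapX library b and by limma on log2(FPKM + 1) with no filter. Over 14 alternatives the adjusted p ranged from 0.000117 to 0.149. Its FPKM depends on the length correction more than that of any other gene: it ranked 73 among all genes by mean FPKM and 151 by counts per kilobase of the full length. The next shortest gene, NRRL3_11129 (150 bases), had 336 and 266 FPKM in the reference and 239 and 184 FPKM in delta-hapX, without overlap, and did not pass the test (log2 fold change -0.49, edgeR adjusted p = 0.0863).

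The 2 strains were compared to find the transcripts that differ without hapX on maltose. Among the short genes, falls outnumbered rises. Of the 257, 161 (62.6%) passed edgeR's default filter on low counts, which does not use the strain labels beyond group size, against 78.3% of all listed genes. Of these 161, 37 were lower and 11 were higher in delta-hapX, and 113 did not pass the test (adjusted p under 0.05 by the quasi-likelihood test of edgeR, with Benjamini-Hochberg adjustment over all 8535 tested genes). Over all tested genes, 26.6% were called, 14.4% lower and 12.2% higher. The short genes had 29.8% called, 23.0% lower and 6.83% higher. Their overall share of calls was thus near the background, and the split by direction was not. Genes just above the length limit had a similar split.

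With no filter, so that every one of the 257 was tested, 42 were lower and 12 higher, where all genes had 12.5% lower and 10.1% higher. DESeq2's Wald test gave an adjusted p for 140 short genes and called 29 of them lower (20.7%) and 6 higher (4.29%). All 35 had been called by edgeR in the same direction. Over all genes that DESeq2 tested, the shares were 10.3% lower and 7.21% higher. The count of 11 higher genes became 6 without reference library a and 5 without delta-hapX library b. A change of at least 2-fold was called in 17 lower (10.6%) and 3 higher (1.86%) short genes, against 4.69% and 4.31% of all tested genes. A change of at least 4-fold was called in 4 lower (2.48%) and 2 higher (1.24%) ones, against 0.914% and 0.926%. The share at least 4-fold higher was thus near the background.

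Negative log2 fold changes also outnumbered positive ones among the 113 tested short genes that were not called, where 69 (61.1%) were negative, against 48.4% of all genes not called. Of the 161 tested short genes, 106 (65.8%) had a negative log2 fold change, against 49.9% of all tested genes. Both delta-hapX libraries were below both reference libraries in 67 and above them in 32, where 31.6% of all tested genes were separated downwards and 31.7% upwards. The median log2 fold change was -0.19 (quartiles -0.57 and 0.18), against 0.0011 for all tested genes. With no filter it was -0.051. When the smooth trend that fold changes showed with coding length was removed from all genes, it was -0.035, and 29 lower and 16 higher short genes were called. That trend was fitted to the same fold changes, the short genes included, and stood at a median of -0.15 over them. On the log2(CPM + 1) scale, the median difference between replicates of a tested short gene was 0.219 in the reference and 0.231 in delta-hapX. That between strain means was 0.391. Over all tested genes the same values were 0.188, 0.184 and 0.311. A mean of 2 libraries varies less than 1 library, so the replicate and strain differences are not like measures.

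**Figure D3:**
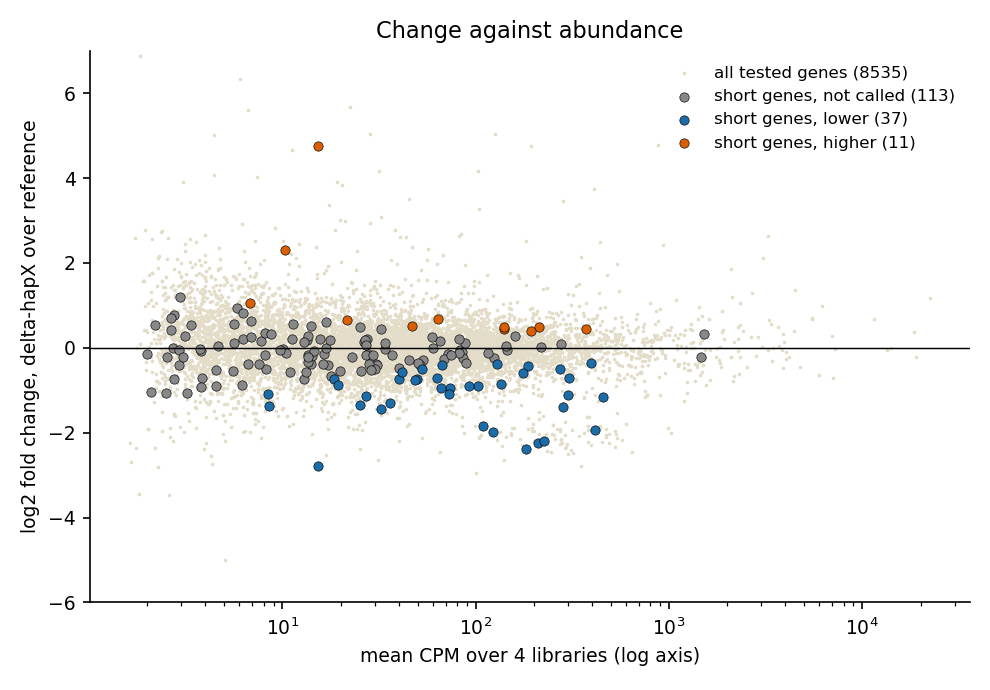
Log2 fold change of delta-hapX over reference against mean CPM over all 4 libraries (log axis) for 8535 tested genes in the background and the 161 tested short genes in front, coloured by the edgeR call; 1 background gene lies outside the axis. The 37 lower short genes spread from about 10 CPM upwards and 6 of them form a group near -2 at high abundance, whereas the 11 higher ones stay below 1 except for 3.

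Calls were also counted within quartiles of abundance, without a test. In the most abundant quartile of all tested genes (over 93.3 CPM), 31 were short, of which 17 (54.8%) were lower and 5 (16.1%) higher. In the quartile as a whole, 476 of 2134 genes (22.3%) were lower and 378 (17.7%) higher. Genes of 303 to 450 bases in this quartile had 37 lower and 8 higher of 81. In the least abundant quartile (up to 11.6 CPM), 2 of 50 short genes were lower and 2 were higher, or 4% each. All tested genes there had 4.92% lower and 8.06% higher. Between 11.6 and 35.1 CPM, 12.77% of the short genes were lower and 4.26% higher, against 12.75% and 10.59% of all tested genes. Between 35.1 and 93.3 CPM, 36.4% were lower and 6.06% higher, against 17.4% and 12.6%. The count test has more power at high counts, so the share of calls per quartile is read within a quartile only. Selected per length instead, 84 short genes had a mean of at least 100 FPKM, and 32 of them (38.1%) were lower and 7 (8.33%) higher. Of 1396 genes of any length at that level, 28.4% were lower and 16.5% higher. The short genes had fewer reads there, with a median of 78.6 CPM in the reference against 216.5 CPM, so these shares are not set at equal power.

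The largest fall was that of NRRL3_07606, a gene of 246 bases and moderate level. It had 114 and 111 reads in the reference and 17 and 11 reads in delta-hapX, or 123 and 123 FPKM against 20.4 and 14.5 FPKM. The reference libraries were nearly equal, and both delta-hapX libraries were far below them. The log2 fold change was -2.79 (SE 0.30, edgeR adjusted p = 1.62e-06), a 6.90-fold fall. It kept an adjusted p under 0.05 in all 14 alternatives, with log2 fold changes from -3.05 to -2.58.

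The next 6 genes were abundant and fell by between 1.85 and 2.38 on the log2 scale. NRRL3_02026 (198 bases) had 1966 and 1682 FPKM in the reference and 349 and 343 FPKM in delta-hapX, which is -2.38 as log2 fold change (SE 0.13; adjusted p = 1.4e-10 by edgeR). NRRL3_04116 (240 bases) had 1852 and 1459 FPKM in the reference and 329 and 366 FPKM in delta-hapX. NRRL3_09367 (279 bases) had 1642 and 1335 FPKM in the reference and 309 and 337 FPKM in delta-hapX. All 3 genes lost more than 4-fold. In FPKM, their delta-hapX libraries lay closer together than their reference libraries, at a lower level.

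NRRL3_07533 (279 bases), the sixth most abundant short gene, had 2892 and 2402 FPKM in the reference and 682 and 676 FPKM in delta-hapX, which is -1.95 as log2 fold change (SE 0.12; adjusted p = 8.15e-10 by edgeR). NRRL3_04854 (267 bases) had 953 and 705 FPKM in the reference and 209 and 204 FPKM in delta-hapX. NRRL3_09356 (249 bases) had 953 and 609 FPKM in the reference and 232 and 196 FPKM in delta-hapX, and its log2 fold change of -1.85 moved between -2.13 and -1.51 over the alternatives. In each of these 6 abundant genes reference library a was higher than reference library b. The same order was seen in 24 of the 37 lower short genes and in 4303 of all 8535 tested genes. Its part in the falls was not tested. Each of the 6 falls was smaller without reference library a than without reference library b. The gap was widest in NRRL3_09356 (-1.51 against -2.13) and narrowest in NRRL3_02026 (-2.28 against -2.48).

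These 6 genes belong to a larger set of 90 abundant genes that fell by at least 1.5 on the log2 scale, of which they are 6.67%; they are 2.33% of the short genes, where the 90 are 0.826% of all listed genes. The limit on the fall chose these genes, so their values are descriptions, with a median log2 fold change of -2.09. Together they made up 0.230% and 0.183% of all counts in the reference and 0.0477% and 0.0480% in delta-hapX. Without them, the remaining 251 short genes still held 1.24% and 1.21% in the reference and 1.02% and 1.09% in delta-hapX. Falls of this size were not particular to the short genes. Among the 81 genes of 303 to 450 bases over 93.3 CPM, the lower quartile of the log2 fold changes was -1.90. Among the 31 short genes at that level it was -1.14. The medians were -0.27 and -0.39, in that order.

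NRRL3_02505 (270 bases) fell less far, from 1748 and 1674 FPKM in the reference to 641 and 648 FPKM in delta-hapX, with replicates in close accord (log2 fold change -1.39, edgeR adjusted p = 2.85e-08). NRRL3_01482 (207 bases) went from 300 and 242 FPKM to 90.1 and 107 FPKM, a log2 fold change of -1.45. NRRL3_10183 (204 bases), the least abundant of the 10 largest falls, had 47 and 57 reads in the reference and 22 and 13 reads in delta-hapX. Its log2 fold change was -1.36 (SE 0.36, edgeR adjusted p = 0.00929), and the call was lost by DESeq2 and without reference library b, within a range of adjusted p from 0.00119 to 0.0868. The remaining 27 lower short genes fell by 0.35 to 1.34 on the log2 scale, and the median size over all 37 was 0.94.

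**Figure D4:**
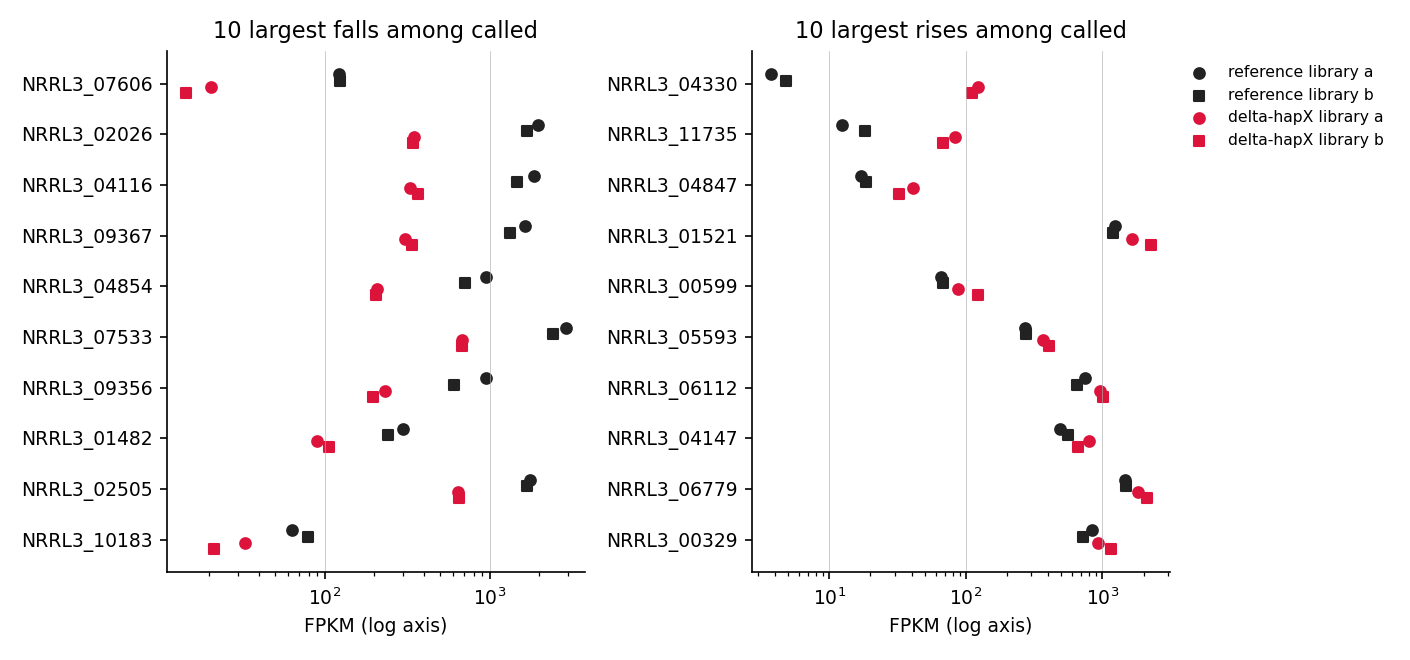
FPKM on a log axis for the 10 short genes with the largest fall (left) and the 10 with the largest rise (right) among those that passed the test, 1 point per library, black for the reference and red for delta-hapX, circles for library a and squares for library b. The libraries of the strains do not overlap in any of these 20 genes. The choice by test and size favours this, so nothing is read from it. Of all tested genes, 31.6% were separated downwards and 31.7% upwards. The fitted change is over 2-fold in each fall, whereas only the first 3 rises reach that size.

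Rises were fewer and mostly small. NRRL3_04330 (279 bases) stood alone. It had 4 and 5 reads in the reference and 118 and 97 reads in delta-hapX, or 3.73 and 4.81 FPKM against 123 and 110 FPKM. The gene was close to the floor in both reference libraries and well measured in both delta-hapX libraries. The ratio of summed counts per library size, delta-hapX over reference, was 27.7 with an exact 95% counting interval from 14.3 to 61.4 (edgeR log2 fold change 4.75, SE 0.37, adjusted p = 1.38e-08). NRRL3_11735 (255 bases) had 12 and 17 reads in the reference and 72 and 54 reads in delta-hapX, a 4.98-fold rise (log2 fold change 2.32, SE 0.35, edgeR adjusted p = 8.03e-05). These were the only rises among the 10 largest that kept an adjusted p under 0.05 in all 14 alternatives.

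NRRL3_04847 (276 bases) had 17.0 and 18.5 FPKM in the reference and 41.0 and 32.3 FPKM in delta-hapX, a log2 fold change of 1.06 at the edge of the threshold (edgeR adjusted p = 0.0484). NRRL3_00599 (279 bases) was as close to it, with 65.3 and 68.2 FPKM against 87.3 and 122 FPKM (edgeR adjusted p = 0.0484). Each of these calls was lost in 6 of 14 alternatives, with adjusted p-values up to 0.224 and 0.385.

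Other rises reached at most 0.52 on the log2 scale and were mostly of abundant genes. NRRL3_06779 (246 bases) had 1455 and 1475 FPKM in the reference and 1818 and 2128 FPKM in delta-hapX. NRRL3_06112 (279 bases) had 751 and 655 FPKM in the reference and 955 and 1013 FPKM in delta-hapX. NRRL3_00329 (186 bases) had 833 and 719 FPKM in the reference and 926 and 1147 FPKM in delta-hapX. In each of them both delta-hapX libraries were above both reference libraries, by less than 1.5-fold between the strain means. NRRL3_04147 (252 bases) rose from 485 and 561 FPKM to 799 and 664 FPKM, and NRRL3_05593 (174 bases) from 270 and 274 FPKM to 364 and 407 FPKM. All 5 calls were lost in at least 1 alternative, NRRL3_06112 in 1 of 14 and NRRL3_00329 in 6 of 14. The eleventh higher gene, NRRL3_07674 (231 bases), rose by 0.41.

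Several well expressed short genes hardly differed between the strains. NRRL3_06397 (255 bases) had 273 and 262 FPKM in the reference and 255 and 274 FPKM in delta-hapX. NRRL3_05415 (255 bases) had 667 and 645 FPKM in the reference and 624 and 639 FPKM in delta-hapX. NRRL3_00451 (222 bases) had 1032 and 1212 FPKM in the reference and 1138 and 1123 FPKM in delta-hapX. Their log2 fold changes were -0.0038, -0.040 and 0.025 with standard errors of 0.15, 0.12 and 0.12, and the sign of each changed under at least 1 alternative. NRRL3_05810 (216 bases) was among the 10 most abundant and likewise did not pass the test, with 1560 and 1349 FPKM in the reference and 1549 and 1506 FPKM in delta-hapX. Of the 113 tested short genes that were not called, 84 had a log2 fold change between -0.5 and 0.5, and the 4 beyond 2-fold in either direction had means of at most 3.21 CPM.

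The split between falls and rises was not limited to the shortest proteins. Among genes of 303 to 450 bases, 79 of 341 tested genes (23.2%) were lower and 28 (8.21%) higher. At 453 to 600 bases the shares were 21.2% and 9.36%, at 603 to 900 bases 18.2% and 8.59%, and from 903 bases upwards 12.5% and 13.5%. The median log2 fold change followed the same order, from -0.19 at most 300 bases through -0.13, -0.10 and -0.097 to 0.035. The short genes thus stood at one end of a gradient, next to genes that differed little from them. Within the class no such order was visible, since the median was -0.18 up to 231 bases, -0.18 at 234 to 252, -0.17 at 255 to 273 and -0.30 at 276 to 300. These are descriptions without a test, and whether RNA or library preparation differed between the strains cannot be told apart from genotype.

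**Figure D5:**
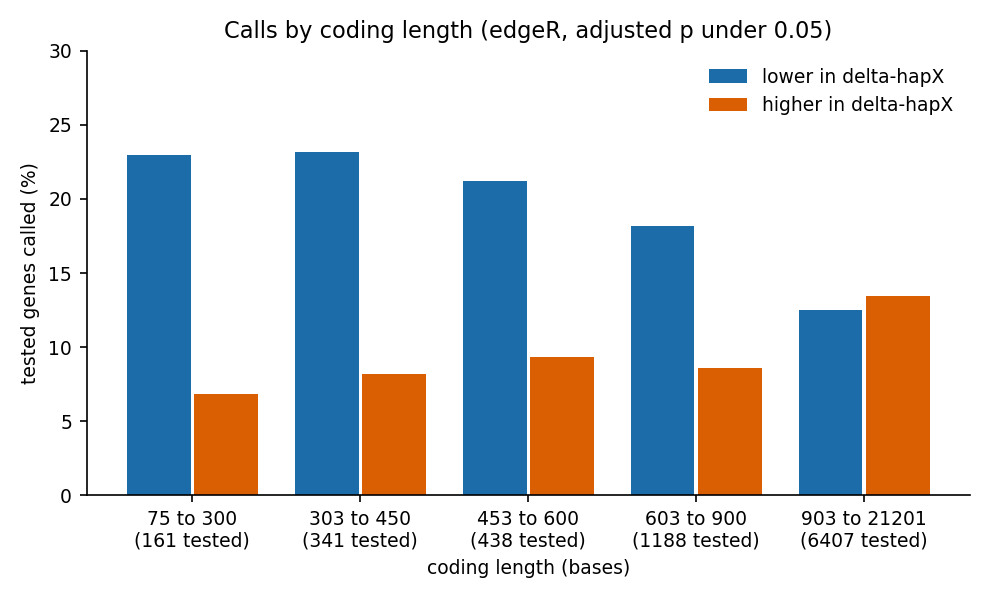
Share of tested genes called lower (blue) or higher (orange) in delta-hapX by edgeR at an adjusted p under 0.05, for 5 classes of coding length, with the number tested under each. Lower calls make up 23.0% of the shortest class and 12.5% of the longest, and higher calls 6.83% and 13.5%.

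At the limit itself, 6 genes had exactly 300 bases and 4 had 303. The 6 just inside had means of 2.65 to 648 FPKM over the 4 libraries. Of these, 3 were tested and 2 were lower, NRRL3_05910 and NRRL3_09216. The 4 just outside had means of 0.438 to 74.1 FPKM, and 2 were tested and not called. Only the inner side held genes over 100 FPKM.

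Short genes were scattered through the identifier numbers. There were 7 pairs of short genes with consecutive numbers, and no run of 3. In 3 of the pairs both genes were tested, and in none were both called. NRRL3_06112, which rose, was followed by NRRL3_06113, which had a mean of 632.5 FPKM in the reference and 649 FPKM in delta-hapX and a log2 fold change of 0.053. NRRL3_08057 fell by 1.30 on the log2 scale, and its neighbour NRRL3_08058 had a log2 fold change of -0.044. Whether these numbers follow chromosomal order is not known here.

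The 96 short genes without a test were close to the floor. They had 1 to 38 reads summed over the 4 libraries, with a median of 7, and means of 0.220 to 13.0 FPKM. Of these, 17 had reads in the reference only and 15 in delta-hapX only. The largest such sums were 8 and 2 reads, so no short gene was seen in 1 strain only with as many as 10 reads. Genes of any length seen in 1 strain only were not counted, so nothing is read from the 17 and 15. For all but 6 of the 96, the exact 95% counting interval of the ratio between strains included 1, so a difference was not detectable at this depth. The interval, which covers counting error only, lay below 1 in 5 genes and above 1 in 1. These intervals were not adjusted for the number of genes, and replicates differed by more than counting error. The same count was not made over all genes without a test, so nothing is read from these 6 or their split. Among the 6, NRRL3_03090 had 22 and 5 reads in the reference and 4 and 7 in delta-hapX, so its strains overlapped. NRRL3_01442 (300 bases) had 7 and 10 reads in the reference and 0 and 1 in delta-hapX. It was the only one of the 96 that edgeR called when no filter was applied.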

How the data were processed

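RNA-seq tables of 4 libraries were used. Per the file headers, each deposited table gives a coding length, an expected count (an estimate of the reads of a gene, without normalization) and the authors' FPKM; only genes with a count are listed. Per the series' design text, reads were mapped to the NRRL3 genome; Bowtie2 and HISAT appear in the submitters' processing notes. The sources used here do not state the quantifier, strandedness or filters, so overlapping or near-identical genes are uncertain. Deposited FPKM equalled the count over length minus 36 bases, scaled to depth, within 0.01 FPKM or 1% for every short gene listed.

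Missing genes were set to 0 and expected counts rounded to whole numbers. Tests used the quasi-likelihood fit of edgeR 4.0.16 (R 4.3.3) on all 4 libraries with TMM, filterByExpr and Benjamini-Hochberg adjustment at 0.05 over all 8535 tested genes; standard errors were derived from the F statistic. CPM uses TMM library sizes, except for the floors, which use library totals. Counting intervals (exact Clopper-Pearson) and floors cover counting error only, since reads carry no molecular identifiers. Alternatives were DESeq2 size factors, library totals, other filters, DESeq2 1.42.0, limma 3.58.1 on log2(FPKM + 1) or log2(FPKM + 0.1), a replicate block, a length offset and leaving out each library. The fits were tested on simulated data.

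Replicates differed by more than sampling noise (chi-square per gene 6.56 in the reference and 3.79 in delta-hapX) and were counted separately. Members and lists were chosen with earlier results of these data known. Named were the 10 largest falls and rises among called short genes, the 10 most abundant by FPKM and CPM, the 2 shortest, any with 10 or more reads in 1 strain only, the 3 least changed at 50 CPM or more, runs of 3, and the genes at the length limit; pairs, NRRL3_07674 and the strain-specific top ranks were added after their values were seen.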

Additional observations from a re-analysis of the deposited data

How the results depend on the processing

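Of 70 recomputed counts of changed short genes, 64 stayed within 1.5-fold of the value reported, and no shared call changed direction. DESeq2's Wald test gave 6 higher genes in place of 11. The 3 genes at least 2-fold higher became 5 with limma at a pseudocount of 1, 5 at 0.1 and 5 with no filter. Leaving out 1 library gave 5 to 12 higher, 31 to 35 lower and 36 to 45 changed genes. The median log2 fold change of -0.19 stayed negative throughout. It was -0.21 with library totals, -0.051 with no filter and -0.057 with DESeq2. With the 3 limma fits it was -0.087, -0.088 and -0.093, and with the trend on length removed -0.035. When 1 library was left out, it ranged from -0.24 to -0.16. Fits with more low genes gave a fold change for 228 to 257 short genes in place of 161. DESeq2 gave one for 257 and an adjusted p for 140. The median level became 25.2 and 25.9 per kilobase of full length, and 28.1 to 29.5 FPKM in delta-hapX with 1 library.

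With the replicate block, 54 short genes were called, 42 lower and 12 higher, including all 48 reported, and the median was -0.21. The letters a and b are not said to pair libraries, and deviations of same-lettered libraries had a correlation of 0.0396 across genes. The block brought NRRL3_01646 under the threshold and changed no other call on a named gene.

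Of the 24 named genes that passed the test, 13 kept an adjusted p under 0.05 in all 14 alternatives. Signs changed only in genes not called. With 1 library left out, log2 fold changes ran from -0.0070 (without reference library b) to 0.18 for NRRL3_05810, from -0.10 (without reference library a) to 0.16 for NRRL3_00451 and from -0.073 to 0.064 for NRRL3_06397. NRRL3_06397 had 0.15 and NRRL3_05415 0.11 with the trend removed. The cause of these shifts was not tested. Depth limits what can be said of the 96 short genes that were not tested.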
